A study of Homo sapiens with 8 samples.

Results

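The genes described here encode the WNT ligands, the Frizzled receptors, the other WNT receptors ROR1, ROR2 and RYK, and the secreted proteins that block or strengthen WNT signalling. AXIN2, LEF1 and TCF7, whose products report or carry out the response in the nucleus, were added to them. The members were chosen by gene symbol alone, as all protein-coding genes named WNT, FZD, SFRP, DKK or RSPO with a number, together with the named genes WIF1, ROR1, ROR2, RYK, AXIN2, LEF1 and TCF7. This gave 48 of the 60659 genes in the count table: 19 WNT ligands, 10 Frizzled receptors, 3 other receptors, 9 secreted antagonists, 4 R-spondins, and the 3 genes AXIN2, LEF1 and TCF7.

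WNT proteins are secreted, lipid-modified ligands that bind Frizzled receptors on the same or on neighbouring cells. With the coreceptors LRP5 and LRP6, some ligands stabilize beta-catenin, which enters the nucleus and activates genes together with the DNA-binding proteins LEF1 and TCF7. Others, WNT5A being the best known, act through ROR receptors on cell shape and movement without beta-catenin. SFRP proteins and WIF1 bind the ligands outside the cell, several DKK proteins block the LRP coreceptors, and R-spondins keep Frizzled receptors from being removed from the surface. WNT signalling guides the neural crest, from which neuroblastoma arises, and is also used by growing axons.

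The RNA came from SK-N-SH, an established human neuroblastoma cell line, and was sequenced after removal of ribosomal RNA. Every group had been treated with 10 μM all-trans retinoic acid (ATRA), which drives neuronal differentiation, over 24 h. Parental cells with doxycycline (Dox) were set against cells that overexpressed ZMYND8 with Dox (ZMYND8 OE), and KD control cells against cells with ZMYND8 knockdown (ZMYND8 KD), with 2 libraries in each of the 4 groups. ZMYND8 is a chromatin reader that binds modified histones. Its FLAG-tagged form came from a Dox-inducible lentiviral vector in stably selected cells. The labels say neither how the knockdown and its control were made nor whether they received Dox. The methods describe shRNA in a lentiviral vector, with selection given for other cell lines only, so its use in these libraries is not known. No vector is named for the parental cells, and no group lacked ATRA. The labels call the 2 libraries of a group biological replicates, without saying whether they came from separate cultures or days, so the p-values measure the spread between these libraries.

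Reads on genes totalled 38316523 to 56256979 per library, and all replicate pairs differed by more than counting noise. ZMYND8 had 3089 and 3612 reads in the parental libraries and 220691 and 182849 in ZMYND8 OE. It had 3128 and 3374 reads in the KD control and 1641 and 1640 in ZMYND8 KD. The targeted gene followed the labels in all 4 groups, with ZMYND8 58.3-fold higher after overexpression and 1.91-fold lower after knockdown. In what follows, a gene was tested if it had enough reads for edgeR's filter. It was called at an adjusted p (Benjamini-Hochberg over all tested genes, edgeR's quasi-likelihood test) below 0.05, if its log2 fold change was 1 or more in size and its normalized count averaged above 20. Values per library are read counts, always in the order replicate 1 and replicate 2. Levels of different genes are compared only as RPKM, in which counts are scaled by exon length and by the TMM-adjusted library size. These were bulk libraries, in which fewer cells of a kind and less RNA per cell cannot be told apart.

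Over the 8 libraries, 28 members had a mean normalized count above 20 and 20 were at or below it. WNT8A and WNT9B had no read in any library. Nearly all exonic sequence of WNT9B (100%) and WNT3 (99.7%) also lies on alternate contigs of the genome, where reads that match more than 1 place may go uncounted, so low counts of these genes say little about their RNA. The strand setting of the counting was not stated, and 47.5% of the exonic bases of DKK3, 21.5% of WNT2B and 18.9% of FZD4 overlap genes on the opposite strand. Of AXIN2, 25.2% overlap a gene on the same strand.

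In ATRA-treated parental cells WNT5A was the leading ligand, and after ZMYND8 overexpression it shared that place with WNT6. ZMYND8 OE cells had more WNT6, RSPO4, SFRP4, ROR2, WNT9A, LEF1, WNT11, WNT16 and AXIN2 than parental cells, and less WNT2B, WNT7B, WNT5B, WNT5A, DKK3 and FZD6. Of the 48 members 38 could be tested in this comparison, and these 9 were called higher and 6 lower. Among all 20835 tested genes 11.8% were called higher and 6.84% lower. By the adjusted p alone, 22 members were higher and 14 lower, where 31.7% and 29.1% of all tested genes were. Members with few or no parental reads entered the test only through their ZMYND8 OE reads. Among them were WNT1, RSPO1, SFRP2, SFRP5, WNT4, WNT8B, WNT10A, WNT10B, RSPO4 and SFRP4. Their being higher was set by the filter, so the counts of higher members hold no evidence from them.

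**Figure D1:**
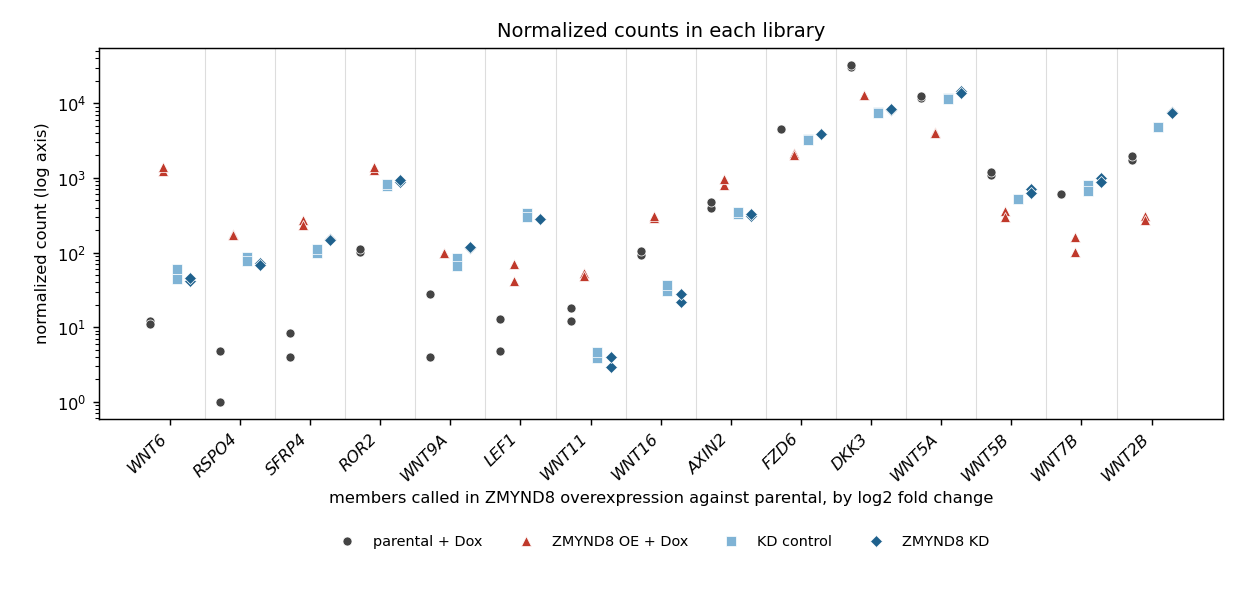
Normalized counts (vertical log axis) of the 15 members called in ZMYND8 OE against parental cells, ordered by log2 fold change, with 1 point for each of the 8 libraries and a symbol for each group. The ZMYND8 OE points lie above both parental points in the 9 genes on the left and below both in the 6 on the right, and the KD control and ZMYND8 KD points lie close together.

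WNT6 encodes a secreted ligand and lies at chr2:218859805-218874233 (GRCh38) on the plus strand. It had 10 and 11 reads in parental cells, 1353 and 1261 in ZMYND8 OE, 45 and 64 in the KD control, and 43 and 46 in ZMYND8 KD. ZMYND8 OE was far above every other library, and no other library reached 100 reads. The log2 fold change against parental cells was 6.90 ± 0.16 (SE, n = 2 and 2, adjusted p = 1.67e-10 by edgeR), which is 120-fold. WNT10A, its neighbour 6618 bases further along the same strand, had 2 and 1 reads in parental cells and 23 and 28 in ZMYND8 OE, a 15.5-fold ratio with a 95% counting interval of 5.00 to 77.5. WNT10A remained too low in mean count to be called.

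WNT2B, which activates beta-catenin in several tissues and lies at chr1:112466541-112530165 on the plus strand, moved the other way. It had 1459 and 1966 reads in parental cells, 345 and 246 in ZMYND8 OE, 4888 and 5165 in the KD control, and 7821 and 7596 in ZMYND8 KD. The 4 groups did not overlap, with ZMYND8 OE lowest and ZMYND8 KD highest. The log2 fold change in ZMYND8 OE was -2.58 ± 0.09 (SE, n = 2 and 2, adjusted p = 3.48e-09 by edgeR), or 5.97-fold lower.

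The promoters of WNT6 and WNT2B are shown because these ligands had the largest rise and the largest fall among the members called after overexpression. Each run is the 250 bases before an annotated start site, 5′ to 3′ on the plus strand, from RefSeq on GRCh38.p14, with CG dinucleotides in capitals. WNT2B has 2 annotated start sites and so 2 windows, at chr1:112466291-112466540 and chr1:112508715-112508964. The window of WNT6 is chr2:218859555-218859804.
WNT6: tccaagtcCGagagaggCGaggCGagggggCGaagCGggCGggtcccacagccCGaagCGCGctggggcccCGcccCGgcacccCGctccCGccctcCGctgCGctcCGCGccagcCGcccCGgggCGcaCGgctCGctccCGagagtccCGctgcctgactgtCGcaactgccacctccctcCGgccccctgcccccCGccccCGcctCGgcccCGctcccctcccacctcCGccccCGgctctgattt
WNT2B, upstream start: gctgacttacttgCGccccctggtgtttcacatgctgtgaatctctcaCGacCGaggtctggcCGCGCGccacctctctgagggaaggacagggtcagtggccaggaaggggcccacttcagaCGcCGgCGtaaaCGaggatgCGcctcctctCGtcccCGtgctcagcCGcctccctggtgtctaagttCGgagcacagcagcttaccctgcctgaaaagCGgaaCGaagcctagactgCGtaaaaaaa
WNT2B, downstream start: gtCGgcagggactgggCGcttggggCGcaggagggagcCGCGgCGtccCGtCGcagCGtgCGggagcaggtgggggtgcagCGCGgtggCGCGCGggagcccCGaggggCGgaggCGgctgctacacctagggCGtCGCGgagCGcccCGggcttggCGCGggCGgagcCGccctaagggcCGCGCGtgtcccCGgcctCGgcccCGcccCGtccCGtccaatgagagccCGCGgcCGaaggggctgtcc
The WNT6 window holds 32 CG dinucleotides, a number reached by 9.52% of 35116 promoter windows. The WNT2B windows hold 18 and 38, numbers reached by 36.8% and 3.28% of all windows. The gene that rose and the gene that fell therefore both had a window rich in CG.

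WNT9A, a ligand of the joint and skeletal primordia, had 23 and 4 reads in parental cells and 109 and 90 in ZMYND8 OE, with 86 and 71 in the KD control and 117 and 120 in ZMYND8 KD. The parental libraries were far apart, and the log2 fold change of 2.80 ± 0.49 (SE, n = 2 and 2) became 4.66 without parental replicate 1 and 1.91 without parental replicate 2, with the call kept in both. WNT16 had 78 and 105 reads in parental cells against 319 and 283 in ZMYND8 OE, 31 and 40 in the KD control, and 22 and 28 in ZMYND8 KD. It was 3.20-fold higher after overexpression (log2 fold change 1.68 ± 0.15, SE). WNT11, a ligand that acts mainly without beta-catenin, had 10 and 18 reads in parental cells and 58 and 44 in ZMYND8 OE, but no more than 5 in any KD control or ZMYND8 KD library. Its log2 fold change was 1.81 ± 0.31 (SE).

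The ligands that were abundant in parental cells were lower after overexpression. WNT5A had 9899 and 12427 reads in parental cells, 4508 and 3605 in ZMYND8 OE, 12029 and 12203 in the KD control, and 14870 and 13865 in ZMYND8 KD. Its log2 fold change was -1.51 ± 0.05 (SE, n = 2 and 2, adjusted p = 1.72e-09 by edgeR), and ZMYND8 OE lay below all other libraries. WNT5B, its close relative, fell from 912 and 1206 reads to 395 and 273, with 538 and 560 in the KD control and 730 and 634 in ZMYND8 KD, a log2 fold change of -1.71 ± 0.10 (SE). WNT7B, which acts on vessels and neurites, fell from 515 and 603 reads to 180 and 92, with 816 and 732 in the KD control and 1022 and 885 in ZMYND8 KD, a log2 fold change of -2.10 ± 0.18 (SE).

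Several ligands had few or no reads in parental cells and more in ZMYND8 OE. WNT1, a ligand of the midbrain and neural crest, had 30 and 20 reads there and 0 in each of the other 6 libraries, which makes it at least 7.44-fold higher than in parental cells when 3 reads per library are taken as the floor. WNT3A had 4 and 3 reads in ZMYND8 OE and WNT7A had 8 and 0, with 0 elsewhere. WNT8B had 3 and 1 reads in parental cells and 29 and 21 in ZMYND8 OE, an 11.4-fold ratio with a counting interval of 4.17 to 43.4. WNT10B had 6 and 3 against 30 and 32 reads, and WNT4 had 6 and 2 against 22 and 31. Both passed the adjusted p and the threshold on fold change but not that on the mean count, so neither was called with all libraries. WNT10B was called when either parental replicate was left out, as the mean count is taken over the libraries fitted. WNT8B, WNT10B and WNT4 also had some reads in the KD control and ZMYND8 KD groups. WNT10B stood at 0.0222 and 0.0352 RPKM in the KD control and at 0.0818 and 0.0373 in ZMYND8 KD. In ZMYND8 OE it stood at 0.207 and 0.266 RPKM. WNT3 and WNT2 were low throughout, with 10 to 32 and 0 to 4 reads per library.

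Members with reads in both ZMYND8 OE libraries and none in the other 6 were WNT1, WNT3A, RSPO1, RSPO2, SFRP2, WIF1 and FZD10. These 7 are 14.6% of the members, and 1.55% of all genes in the table (938) had this pattern. All genes here include non-coding genes and genes without reads, while the members are protein-coding, so the shares are not of like genes. The pattern was chosen after the counts had been seen. Reads from so few molecules give no firm level, and the intervals and floors cover counting error only.

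Per length of exon, the ligands as a group summed to 44.3 and 46.6 RPKM in parental cells, 31.9 and 32.9 in ZMYND8 OE, 46.7 and 45.4 in the KD control, and 61.1 and 57.3 in ZMYND8 KD. The sum was lowest in ZMYND8 OE and highest in ZMYND8 KD, with no overlap of either with another group. WNT5A made up 74.1% and 73.7% of the ligand sum in parental cells and 35.4% and 33.2% in ZMYND8 OE. WNT6 made up 0.312% and 0.272% in parental cells and 44.2% and 48.3% in ZMYND8 OE. The level of WNT6 there was 15.0 ± 1.24 RPKM and that of WNT5A 11.1 ± 0.28 RPKM (SD, n = 2). This order rests on the exon lengths of 1719 bases for WNT6 and 7153 for WNT5A, since WNT5A still had more reads.

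**Figure D2:**
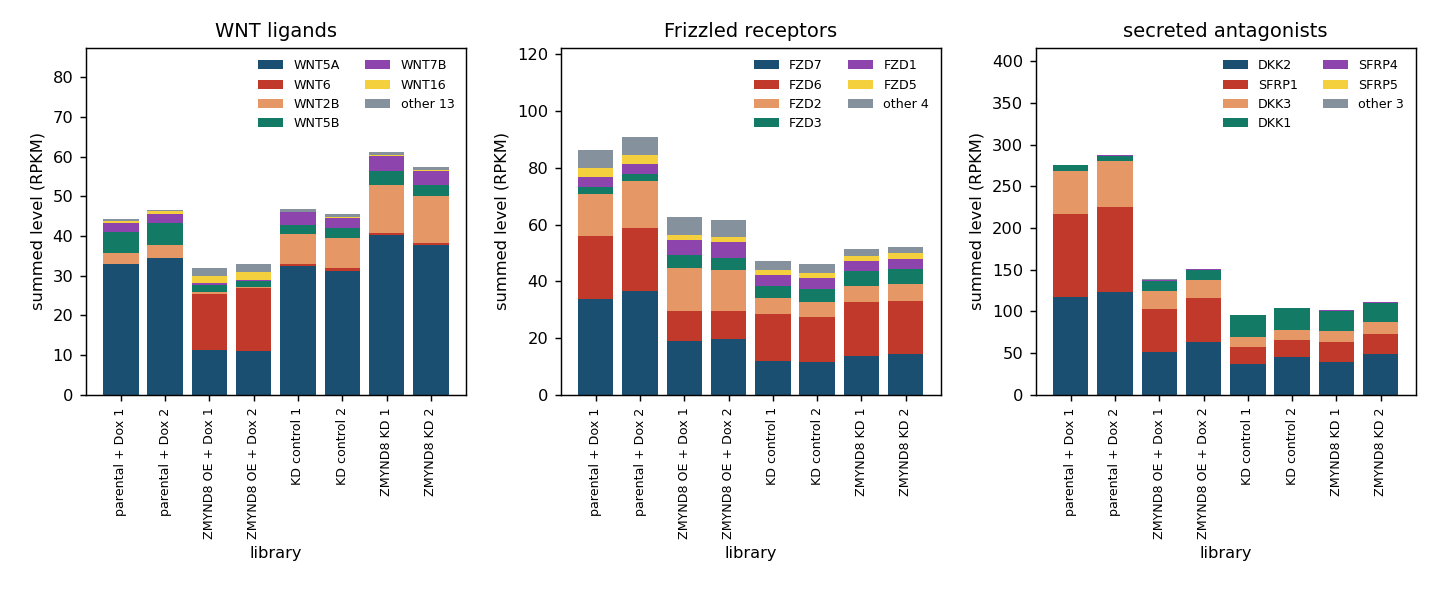
Stacked levels (RPKM, linear axes from 0) of the WNT ligands, Frizzled receptors and secreted antagonists in each of the 8 libraries, with the 6 members of highest level in each class drawn apart and the rest together. WNT6 forms 44.2% and 48.3% of the ligand bar in the ZMYND8 OE libraries and under 2% in the other 6, and the antagonist bars are highest in the parental libraries.

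Receptors shifted in kind as well. ROR2, a receptor tyrosine kinase relative that binds WNT5A, had 85 and 112 reads in parental cells, 1415 and 1285 in ZMYND8 OE, 795 and 896 in the KD control, and 896 and 965 in ZMYND8 KD. The parental libraries stood alone at the low end, and the log2 fold change after overexpression was 3.74 ± 0.11 (SE, n = 2 and 2, adjusted p = 7.00e-10 by edgeR), or 13.3-fold. Its relative ROR1 had 2835 and 3706 reads in parental cells and 2348 and 1971 in ZMYND8 OE, with a log2 fold change of -0.64 ± 0.06 (SE). RYK, a WNT receptor with an inactive kinase domain, had a log2 fold change of -0.52 ± 0.05 (SE). ROR1 and RYK passed the adjusted p but not the threshold on fold change.

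Among the Frizzled receptors, FZD7, FZD6 and FZD2 were the most abundant per length in parental cells, at 35.2 ± 1.90, 22.1 ± 0.15 and 15.9 ± 1.17 RPKM (SD, n = 2). FZD6, a Frizzled of planar cell polarity, had 3764 and 4559 reads in parental cells, 2396 and 1849 in ZMYND8 OE, 3440 and 3485 in the KD control, and 3958 and 3920 in ZMYND8 KD. It was the only Frizzled called after overexpression, at a log2 fold change of -1.02 ± 0.05 (SE), and the call was lost without ZMYND8 OE replicate 2 (-0.98). FZD7 had 5499 and 7122 reads in parental cells, 4059 and 3517 in ZMYND8 OE, 2419 and 2435 in the KD control, and 2737 and 2856 in ZMYND8 KD. FZD7 and FZD5 were lower after overexpression by the adjusted p alone, with log2 fold changes of -0.77 and -0.66. FZD3, needed for axon outgrowth, FZD1 and FZD9 were higher by the adjusted p alone, at 0.98, 0.73 and 0.68. FZD8 (-0.39) also passed the adjusted p, which reached 0.260 over the alternatives, and its log2 fold change was -0.64 to -0.18 without 1 library. FZD2 (-0.00) and FZD4 (-0.14) did not, with adjusted p of 0.982 and 0.125 by edgeR. FZD10 had 12 and 1 reads in ZMYND8 OE and none elsewhere. The summed level of the 10 receptors was 86.3 and 90.8 RPKM in parental cells and 62.8 and 61.5 in ZMYND8 OE.

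The secreted antagonists were the most abundant class in these cells. DKK2, SFRP1 and DKK3 stood at 120 ± 3.82, 101 ± 1.88 and 52.8 ± 2.48 RPKM in parental cells (SD, n = 2), above every WNT ligand. DKK3, a divergent member of its family, had 25699 and 32954 reads in parental cells, 14051 and 11973 in ZMYND8 OE, 7979 and 7996 in the KD control, and 8431 and 8473 in ZMYND8 KD. It was 2.32-fold lower after overexpression (log2 fold change -1.21 ± 0.05, SE). DKK2 had 21459 and 26934 reads in parental cells, 12426 and 12719 in ZMYND8 OE, 8311 and 10601 in the KD control, and 8904 and 10818 in ZMYND8 KD. SFRP1, which binds WNT proteins, had 19866 and 24476, 13652 and 11388, 4897 and 5219, and 5726 and 5970 reads in the same order of groups. Both were highest in parental cells. Their log2 fold changes of -0.97 ± 0.09 and -0.87 ± 0.05 (SE) passed the adjusted p but not the threshold of 1. DKK2 passed that too without parental replicate 1 (-1.01) or ZMYND8 OE replicate 2 (-1.14).

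SFRP4, another antagonist that binds WNT proteins, was called higher. It had 7 and 4 reads in parental cells, 297 and 215 in ZMYND8 OE, 102 and 122 in the KD control, and 153 and 149 in ZMYND8 KD. Its log2 fold change was 5.45 ± 0.29 (SE, n = 2 and 2, adjusted p = 5.28e-08 by edgeR), or 43.8-fold. SFRP4 had passed the filter only through its ZMYND8 OE reads, so this p-value holds no evidence of its direction. DKK1, the best-known blocker of LRP5 and LRP6, had 674 and 794 reads in parental cells and 1485 and 1238 in ZMYND8 OE, with a log2 fold change of 0.85 ± 0.07 (SE) that passed the adjusted p alone. SFRP5 had 0 and 2 against 23 and 16 reads, a 17.7-fold ratio with a counting interval of 4.59 to 152. SFRP2 had 20 and 16 reads in ZMYND8 OE and WIF1 had 6 and 8, with 0 elsewhere, which makes them at least 5.40-fold and 2.15-fold higher than in parental cells. DKK4 had 0 to 2 reads per library. The class as a whole summed to 275 and 287 RPKM in parental cells and 138 and 151 in ZMYND8 OE, so that the losses of the abundant members exceeded the gains of the rare ones.

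All 4 R-spondins had more reads in ZMYND8 OE. RSPO4 had 4 and 1 reads in parental cells, 193 and 157 in ZMYND8 OE, 89 and 83 in the KD control, and 74 and 69 in ZMYND8 KD. Its log2 fold change was 6.01 ± 0.38 (SE, n = 2 and 2, adjusted p = 2.01e-07 by edgeR), and 7.35 or 5.22 without parental replicate 1 or 2. The filter had set the direction of RSPO4, so this p-value holds no evidence of it. RSPO1 had 26 and 16 reads, RSPO2 had 16 and 7, and neither had a read in another library, which puts them at least 6.23-fold and 3.36-fold above parental cells. RSPO3 had 4 and 4 reads in ZMYND8 OE and at most 1 elsewhere. The summed level of the class stayed small, at 1.49 and 1.40 RPKM in ZMYND8 OE and 0.0344 and 0.00718 in parental cells.

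AXIN2, a scaffold of the complex that degrades beta-catenin and a widely used target gene of the pathway, had 334 and 470 reads in parental cells and 894 and 879 in ZMYND8 OE. It had 334 and 382 in the KD control and 313 and 335 in ZMYND8 KD, so that only ZMYND8 OE stood apart. The log2 fold change of 1.11 ± 0.11 (SE, adjusted p = 1.11e-05 by edgeR) went just under the threshold without parental replicate 1 (0.997) or ZMYND8 OE replicate 2 (0.981). LEF1, a DNA-binding partner of beta-catenin, had 4 and 13 reads in parental cells, 78 and 38 in ZMYND8 OE, 350 and 322 in the KD control, and 289 and 284 in ZMYND8 KD. Its log2 fold change after overexpression was 2.70 ± 0.44 (SE). It was 3.60 without parental replicate 2, and 2.27 without ZMYND8 OE replicate 1, where the call was lost to the mean count. TCF7, the related partner, had 416 and 484 reads in parental cells, 896 and 730 in ZMYND8 OE, 1327 and 1438 in the KD control, and 1613 and 1740 in ZMYND8 KD. Its log2 fold change after overexpression, 0.81 ± 0.09 (SE), passed the adjusted p alone.

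**Figure D3:**
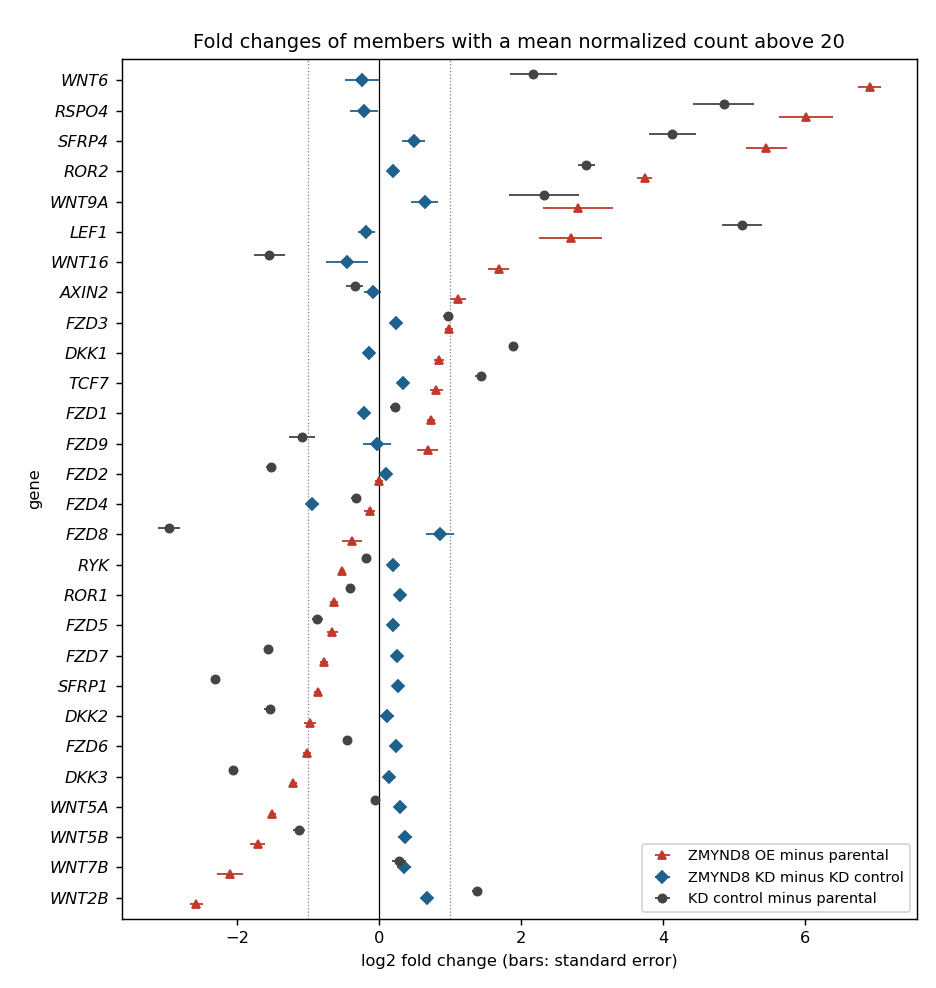
Log2 fold changes (horizontal axis, bars are standard errors of the fit, n = 2 and 2) of the 28 members with a mean normalized count above 20, for ZMYND8 OE against parental cells, ZMYND8 KD against the KD control, and the KD control against parental cells. Dotted lines mark 1 and -1. All 28 knockdown points lie between these lines, with FZD4 (-0.94) and FZD8 (0.85) farthest out.

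Other genes of the pathway were described from 7 fixed lists. Of 10 tested beta-catenin target genes outside the members, 5 were called higher and 0 lower after overexpression, with a median log2 fold change of 1.76 against 0.03 over all tested genes. Among all tested genes 11.8% were called higher and 6.84% lower. In the KD control against parental cells, 4 of 8 tested targets were called higher and 0 lower, with a median of 1.02. These were NKD1, LGR5, TNFRSF19 and BAMBI, where 10.8% of all tested genes were called higher and 10.8% lower. NKD1, an inhibitor of Dishevelled, had 25 and 34 reads in parental cells, 720 and 531 in ZMYND8 OE, 312 and 368 in the KD control, and 273 and 295 in ZMYND8 KD. BAMBI, a decoy receptor for TGF-beta ligands, rose at a log2 fold change of 2.07 ± 0.14 (SE), and APCDD1, a membrane inhibitor of the pathway, from 1 and 0 to 41 and 59 reads. TNFRSF19 and LGR5, a receptor for R-spondins, were the other called targets. The summed level of the target list was 1300 and 1338 CPM (counts scaled to TMM-adjusted library sizes) in parental cells and 1153 and 984 in ZMYND8 OE. Most of this sum is CCND1, a cell cycle gene named after its values had been seen, which had 52333 and 64480 reads in parental cells and 57826 and 40152 in ZMYND8 OE (log2 fold change -0.31 ± 0.07, SE).

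The counts of the next lists also stand beside the 11.8% of all tested genes called higher and the 6.84% called lower. Of 16 tested genes of cytoplasmic beta-catenin control, NKD1, APC2 and DACT3 were called higher and DACT1 lower, and the list's median log2 fold change was 0.01. APC2, a neuronal relative of APC, had 1113 and 1577 reads in parental cells and 12162 and 10886 in ZMYND8 OE. Of 10 tested coreceptors and regulators of receptor turnover, TSPAN12, KREMEN2 and LGR5 were called higher and none lower (median -0.27). TSPAN12, a partner of FZD4 in Norrin signalling, and KREMEN2, which takes up LRP6 together with DKK proteins, had log2 fold changes of 4.54 ± 0.25 and 4.32 ± 0.18 (SE). Of 11 tested nuclear partners, the corepressors TLE2 and TLE3 were called higher and the coactivator BCL9L lower (median -0.13). Among 7 tested genes of WNT processing and secretion, the glypican GPC4 was called lower. DAAM2 was called higher among 9 planar cell polarity genes, and APCDD1, SOSTDC1 and DKKL1 among 4 tested secreted modulators.

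After knockdown of ZMYND8, FZD4 was lower and ligands such as WNT2B and WNT5A were slightly higher, by the adjusted p alone. Of the 48 members 29 could be tested, and 0 were called higher and 0 lower by edgeR and by DESeq2, where 1.36% and 0.596% of all 19789 tested genes were called by edgeR. At these shares, no call among 29 genes is no result about the members. At an unadjusted p below 0.05, 17 were higher and 3 lower, against 19.1% and 17.1% of all tested genes. By the adjusted p alone 13 were higher and 2 lower, against 13.4% and 10.8% of all tested genes. The tested members had a median mean normalized count of 889, against 582 over all tested genes, and what part this has in these counts was not tested. Their median log2 fold change was 0.19 and that of all tested genes -0.01.

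FZD4, a receptor for WNT proteins and for Norrin, had the largest change. It had 822 and 879 reads in the KD control and 445 and 410 in ZMYND8 KD, against 864 and 1006 in parental cells and 967 and 791 in ZMYND8 OE. The ZMYND8 KD libraries stood alone below the other 6. The log2 fold change of -0.94 ± 0.09 (SE, n = 2 and 2, adjusted p = 5.55e-05 by edgeR) fell short of the threshold of 1, and passed it when ZMYND8 KD replicate 1 was left out. FZD1 (-0.21) was the other member that was lower by the adjusted p.

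The 13 members that were higher by the adjusted p included 5 ligands. WNT2B had a log2 fold change of 0.67 ± 0.05 (SE, adjusted p = 7.70e-06 by edgeR), WNT9A 0.64, WNT5B 0.36, WNT7B 0.35 and WNT5A 0.29 ± 0.05. The receptors FZD8 (0.85), ROR1 (0.29), FZD7 (0.25), FZD6 (0.23), FZD3 (0.23) and RYK (0.19), the antagonist SFRP1 (0.26) and TCF7 (0.33) made up the rest. WNT6, RSPO4 and AXIN2, which were called higher after overexpression, did not pass the test here. WNT6 had a log2 fold change of -0.24 ± 0.25, RSPO4 of -0.22 ± 0.19 and AXIN2 of -0.09 ± 0.12 (SE, adjusted p = 0.532, 0.467 and 0.617 by edgeR). In the pathway lists, TRABD2A and TRABD2B, membrane proteases that cleave and inactivate WNT proteins, were called higher (1.01 and 1.97), and no other listed gene was called.

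A model of all 8 libraries tested whether overexpression and knockdown differed in their effects, and 38 members could be tested in it. WNT6, RSPO4, SFRP4, ROR2, LEF1, WNT9A, WNT16 and AXIN2 were called higher in this difference. WNT2B, WNT7B, WNT5B, WNT5A, DKK3, FZD6, FZD8, SFRP1, DKK2 and FZD7 were called lower. These are 8 and 10 members, where 11.1% and 7.66% of all 22619 tested genes were called. The largest were WNT6 at 7.14 ± 0.30 and WNT2B at -3.25 ± 0.10 (SE, log2 scale, adjusted p = 6.15e-11 and 1.84e-12 by edgeR). WNT2B and WNT5A were lower after overexpression and higher after knockdown by the adjusted p in each comparison. The calls of DKK2 and FZD7 were each lost when 1 of some libraries was left out, at -0.94 to -0.96 and -0.98 to -0.99.

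The control groups themselves differed widely in these genes. The KD control and the parental cells both received ATRA. Dox is named for the parental cells only and a control knockdown for the others, and any effects of these and of other differences between the experiments cannot be told apart. Of 30 tested members, 9 were called higher and 9 lower in the KD control, where 10.8% of all 20385 tested genes were called higher and 10.8% lower. LEF1 was 34.4-fold, RSPO4 28.8-fold and SFRP4 17.4-fold higher in the KD control, with log2 fold changes of 5.11 ± 0.28, 4.85 ± 0.43 and 4.12 ± 0.33 (SE). Without parental replicate 2 the value for LEF1 was 6.02, and RSPO4 ranged from 4.06 to 6.20 without 1 parental library. ROR2 (2.91), WNT9A (2.32), WNT6 (2.17), DKK1 (1.88), TCF7 (1.43) and WNT2B (1.37) were the other members called higher. WNT9A again moved with the parental library left out, from 1.44 to 4.19. RSPO4 and SFRP4 entered this test only through their KD control reads. LEF1 and WNT9A did not have enough reads in both parental libraries, so they too needed KD control reads to enter. Being higher was set or favoured by the filter in these members, so the count of 9 holds no evidence from them.

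FZD8, SFRP1 and DKK3 were lower in the KD control by 7.81-fold, 4.99-fold and 4.17-fold. FZD8 had 370 and 477 reads in parental cells, 423 and 252 in ZMYND8 OE, 64 and 59 in the KD control, and 101 and 114 in ZMYND8 KD. FZD2 had 2406 and 3202 reads in parental cells and 3234 and 2537 in ZMYND8 OE, but 1108 and 1094 in the KD control and 1141 and 1142 in ZMYND8 KD. FZD9 had 150 and 161 reads in parental cells and 268 and 246 in ZMYND8 OE, but 86 and 81 in the KD control and 85 and 73 in ZMYND8 KD. For both genes the KD control and ZMYND8 KD libraries lay below all 4 others. FZD7 (-1.56), DKK2 (-1.55), WNT16 (-1.55), FZD2 (-1.53), WNT5B (-1.13) and FZD9 (-1.09) were also called lower. WNT5A did not pass the test, at a log2 fold change of -0.07 ± 0.05 (SE, adjusted p = 0.232 by edgeR). DKK1 had 3007 and 3171 reads in the KD control and 2721 and 2694 in ZMYND8 KD, and it made up 27.1% and 25.1% of the summed antagonist level there against 2.62% and 2.47% in parental cells. The antagonist sum was 96.2 and 104 RPKM in the KD control and 101 and 111 in ZMYND8 KD, below that of both groups of the overexpression experiment.

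Because the overexpression and the control comparison share the parental libraries, a parental value enters both. Values for the same member are therefore only set side by side. ROR2 changed by 3.74 in ZMYND8 OE and by 2.91 in the KD control, SFRP4 by 5.45 and 4.12, RSPO4 by 6.01 and 4.85, and LEF1 by 2.70 and 5.11 (log2). WNT6 changed by 6.90 and 2.17. WNT2B changed by -2.58 and 1.37, WNT16 by 1.68 and -1.55, and AXIN2 by 1.11 and -0.35, so that these had opposite signs.

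Neuroblastoma cells occur in an adrenergic state, led by factors such as GATA2, and a mesenchymal state, led by factors such as PRRX1, and SK-N-SH is known to hold both. The summed level of 10 adrenergic markers was 335 and 337 CPM in parental cells, 1089 and 1131 in ZMYND8 OE, 747 and 790 in the KD control, and 587 and 654 in ZMYND8 KD. That of 10 mesenchymal markers was 7053 and 7258 in parental cells, 2949 and 2694 in ZMYND8 OE, 4836 and 4816 in the KD control, and 5584 and 5282 in ZMYND8 KD. Of 9 tested adrenergic markers 6 were called higher after overexpression, where 11.8% of all tested genes were. One of these was GATA2, which had 952 and 1134 reads in parental cells and 18560 and 15855 in ZMYND8 OE. Of 10 mesenchymal markers 6 were called lower, where 6.84% of all tested genes were. Among these markers were CD44 (-2.55), PRRX1 (-2.39) and FOSL1 (-1.75), while TWIST1 was called higher (1.31). The adrenergic marker TH had 0 to 5 reads per library, and no mesenchymal marker was at 0. Of 5 Schwann and glial markers S100B was called higher (3.14), SOX10 had 0 or 1 reads per library, and the list summed to 1.68 to 3.62 CPM. In the KD control against parental cells, 6 of 8 tested adrenergic markers were called higher and 0 lower. Among all tested genes 10.8% were called higher and 10.8% lower in that comparison. Of 10 mesenchymal markers 0 were called higher and 3 lower there, and of 4 glial markers 1 was called higher. By the adjusted p alone, 5 mesenchymal markers were higher and 5 lower, and the list's median log2 fold change was -0.11. The part of these markers in the changes of the members was not tested.

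**Figure D4:**
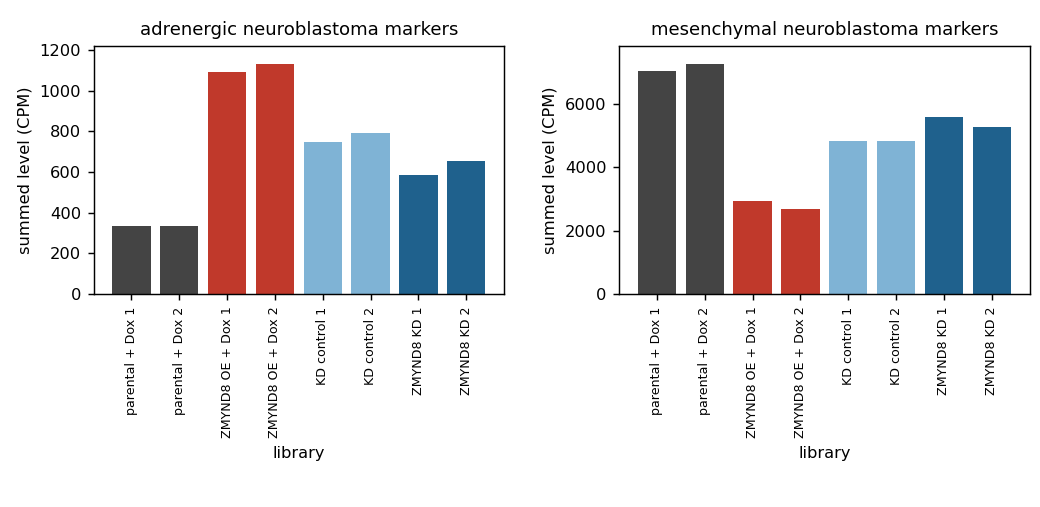
Summed level (CPM, bars from 0) of 10 adrenergic and 10 mesenchymal marker genes in each of the 8 libraries. The adrenergic sum is lowest in the parental libraries (335 and 337) and highest in ZMYND8 OE (1089 and 1131), and the mesenchymal sum has the opposite order for these groups.

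The promoters were searched for letters of interest in windows from 250 bases before to 50 bases after each start site, on both strands. RefSeq windows were matched for 34 members (38 windows), and not for AXIN2, DKK2, DKK3, DKK4, FZD10, FZD2, FZD3, FZD6, FZD7, RSPO2, SFRP1, WNT10B, WNT11 and WNT7B. The letters CTTTGAT, read by LEF1 and TCF7, occurred in 0 of the 38 member windows and in 2.62% of all 35116 windows. AGGTCA, the hexamer bound by retinoic acid receptors and many other nuclear receptors, occurred in 3 of the 38 (TCF7, WNT16 and WNT2) and in 13.8% of all windows. As direct repeats with 5 or 2 bases between, which overlap the search for AGGTCA itself, it occurred in 0 member windows and in 2 and 1 of all windows. In WNT16 the match begins at position -204 relative to the start site, on the plus strand, and is shown with 12 bases on each side and the match in capitals because all cells were treated with ATRA.
WNT16: tgacagcaggaaAGGTCAtgacacacccag
The median number of CG dinucleotides in the 250 bases before the start was 23.5 in the member windows and 11 in all windows.

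Some members lie next to each other in the genome. WNT10B and WNT1 lie 6586 bases apart on chromosome 12, on opposite strands, and both had their highest counts in ZMYND8 OE, as had WNT6 and WNT10A on chromosome 2. WNT9A and WNT3A lie 59065 bases apart on chromosome 1, and WNT3A had reads only in ZMYND8 OE while WNT9A had reads in every group. WNT3 and WNT9B lie 46 bases apart on chromosome 17 and share the limit on reads from alternate contigs.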

How the data were processed

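RNA was measured in 8 libraries, grouped by the treatments and titles in the labels. According to the methods, the authors trimmed reads with Trim_Galore, aligned them to GRCh38 with Hisat2 and counted them with featureCounts on GENCODE release 28. They deposited counts, whole reads per gene without normalization, beside exon lengths. A gene split over 3 of the 60662 lines was left out. Symbols, coordinates and overlaps came from GENCODE release 44, which matched 60418 identifiers, and promoter sequences from RefSeq (GRCh38.p14).

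Low counts were removed with filterByExpr. After TMM normalization, two-sided quasi-likelihood tests were run in edgeR 4.0.16 (limma 3.58.1, R 4.3.3), separately for each comparison and over all 8 libraries for the difference of effects. The scripts were tested on simulated data. The methods state a p-value threshold where the adjusted p was used here. RPKM and CPM were computed here from TMM-adjusted library sizes over all 8 libraries. Every member is named, with reads and fold changes for those called in a comparison. Listed genes are named where called after overexpression or knockdown, at most 3 per list and direction, and TNFRSF19, CCND1, TH and SOX10 were added after their values had been seen. Some listed markers are not reported here by name.

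The alternatives changed the normalization (RLE, upper quartile), the test (DESeq2 1.42.0), the filter, the thresholds and the libraries fitted together, added a replicate block or a gene length correction, or left out 1 library at a time. Same-numbered libraries did not deviate together (correlations of -0.04 to 0.06), so the numbers were not taken as pairs. The members and lists were chosen with earlier results of these data known.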

Additional observations from a re-analysis of the deposited data

Results flagged for a closer look

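The effects of overexpression and knockdown on 18 members differed by the test of the difference itself, fitted in edgeR over all 8 libraries and called with the thresholds used throughout. The values are overexpression effect minus knockdown effect on the log2 scale, from 2 libraries a group. Ligands stood at both ends, with WNT6 at 7.14, WNT9A at 2.15 and WNT16 at 2.13, and WNT5A at -1.81, WNT5B at -2.08, WNT7B at -2.45 and WNT2B at -3.25. The R-spondin RSPO4 was at 6.23 and the receptor ROR2 at 3.54, while FZD7 was at -1.03, FZD8 at -1.25 and FZD6 at -1.26. Among the antagonists SFRP4 was at 4.97, and DKK2 at -1.09, SFRP1 at -1.13 and DKK3 at -1.35. LEF1 was at 2.87 and AXIN2 at 1.20. Leaving out parental replicate 2 or 1 gave 1.28 or 4.03 for WNT9A and 5.44 or 7.58 for RSPO4, and without parental replicate 2 LEF1 was at 3.80. Each experiment had its own control group, and these controls differed in many of the same genes, as described above. What part that difference has in these values was not tested.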

How the results depend on the processing

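No change of direction of a called member was seen under any alternative. With no threshold on fold change, 14 members were higher and 13 lower after overexpression, where 5550 and 5782 of all 20835 tested genes were. After knockdown 13 and 2 were, against 2602 and 2105 of 19789 genes. In the KD control against parental cells 12 were higher and 15 lower, against 6042 and 6677 of 20385 genes. In the difference of effects 14 were higher and 13 lower, against 4839 and 5257 of 22619 genes. With a mean normalized count above 100 required, 5 members were higher and 6 lower after overexpression, against 1300 and 1031 of 20835 genes. In the KD control 5 were higher and 8 lower, against 1272 and 1339 of 20385 genes. Leaving out 1 library gave 0 to 1 members lower after knockdown (FZD4 without ZMYND8 KD replicate 1). With the replicate block the counts were 9 higher and 6 lower after overexpression and 0 and 0 after knockdown, as without it, and no call changed. With the block and the length correction DKK2 was called lower as well, which made 7. Upper quartile normalization moved the median log2 fold change of all genes from 0.03 to 0.11 after overexpression and from 0.06 to 0.13 in the difference of effects, and under it FZD6 lost its call and FZD3 gained one (1.06) after overexpression. WNT9A lost its call in the KD control and in the difference of effects with DESeq2. The causes were not tested. Among the values of single members under the alternatives, 1549 kept their side of the threshold, 60 passed it newly and 24 no longer passed it. Depth limits the 20 members with a mean normalized count of 20 or less, and 2 libraries a group limit the rest.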
